A study of Mus musculus with 24 samples.

Results

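Natural killer (NK) cells of the spleen were compared between mice lacking the signalling adaptor FcRγ (genotype KO) and wild-type mice (WT) in the naive state, without any cytokine treatment. The members are the 8 libraries whose labels give spleen tissue and naive treatment, 4 KO and 4 WT, out of 24 poly(A) RNA sequencing libraries in the series. Beside them stand 8 libraries of IL-15-treated spleen NK cells and 8 of NK cells from tumour-bearing lung, each again with 4 KO and 4 WT. The series text gives every group 4 biological replicates, and p-values measure the spread between these samples. The sources used here do not give the strain, sex or age of the animals or how the KO allele was made. They also do not say whether each library is 1 animal or how the NK cells were purified.

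NK cells kill infected, transformed or antibody-coated cells by releasing perforin and granzymes, and several of their receptors for these targets lack signalling tails of their own. FcRγ, the product of Fcer1g, is one of the small transmembrane adaptors that supply the tail. Its activation motif is phosphorylated when the Fc receptor CD16 or the receptor NKp46 is engaged and then recruits the kinases SYK and ZAP-70. CD3ζ (Cd247) and DAP12 (Tyrobp) do the same work for overlapping or other sets of receptors.

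Naive library totals were 24578148 to 32095383 counts in WT and 23302290 to 27460303 in KO replicates 2 to 4, while KO replicate 1 had 9683382. KO replicate 1 stood apart from the other 7. It lay at 134 on the first principal component (37.9% of the variance), where the others lay between -31.6 and -4.37. Mitochondrial genes made up 1.18% of its counts against 4.19% to 9.28% in the other KO libraries and 4.89% to 6.31% in WT. Results below that depend on it are given with and without it. Levels are in CPM, counts scaled to a common library size, with library totals adjusted by the trimmed mean of M values (TMM). Log2 changes are KO against WT, so that positive values mean higher in KO. Each is given with its standard error. Each adjusted p for a gene comes from edgeR's quasi-likelihood test with Benjamini-Hochberg adjustment over all 13344 genes tested, at a threshold of 0.05. NK-defining markers were present in every library. The 12 genes of that list summed to 24553 to 26720 CPM in WT and 19279 to 22285 CPM in KO (exact two-sided permutation test p = 0.0286, the smallest that 4 against 4 can give; adjusted over 19 library measures, 0.0905). Of the 12, 4 were lower and 1 higher in the test of single genes, and the rest did not pass. The granzyme gene Gzma, a large part of the sum, alone averaged 8897 CPM in WT and 6149 CPM in KO. In bulk samples, fewer cells of a type and less RNA per cell cannot be told apart.

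Fcer1g, at chromosome 1, 171229572 to 171234365 (GRCm38), separated the genotypes in every library. It stood at 836, 769, 843 and 673 CPM in WT replicates 1 to 4 and 1.29, 7.13, 4.46 and 2.98 CPM in KO. The KO level was lower in all 4 libraries and was not zero, a log2 change of -7.54 ± 0.35 (adjusted p = 1.71e-10), and the call held in each alternative run. The adaptors DAP12 and CD3ζ and the receptors CD16 and NKp46 did not pass the test. DAP12 (Tyrobp), which pairs with activating Ly49 receptors, was at 1052, 1024, 1019 and 923 CPM in WT and 872, 804, 824 and 775 CPM in KO. Although the groups did not overlap, the log2 change of -0.29 ± 0.14 did not pass (adjusted p = 0.14). CD3ζ (Cd247), which pairs with FcRγ, had a log2 change of -0.18 ± 0.14 (adjusted p = 0.387) and overlapping groups. For CD16 (Fcgr3), the low-affinity receptor for IgG, the levels were 89.4, 85.9, 82.3 and 98.7 CPM in WT and 31.8, 85.0, 78.4 and 92.6 CPM in KO. KO replicate 1 lay far below the rest, 2 of the other 3 KO libraries lay within the WT range and 1 just below it, and the log2 change of -0.30 ± 0.21 did not pass (adjusted p = 0.342). NKp46 (Ncr1) was at 1295 ± 76.9 CPM in WT and 1169 ± 163 CPM in KO (SD, n = 4, log2 change -0.15 ± 0.11, adjusted p = 0.381).

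The CD3 chains, which carry the same kind of activation motif in T cells, were higher in KO. Cd3d was at 22.7, 21, 18.5 and 14.2 CPM in WT and 34.8, 24.8, 46.4 and 36.8 CPM in KO (log2 change 0.90 ± 0.26, adjusted p = 0.0205). Cd3e was at 1.903 ± 0.570 CPM in WT and 6.204 ± 3.26 CPM in KO (SD, n = 4, log2 change 1.71 ± 0.45, adjusted p = 0.0122). Cd3g was at 7.92 ± 2.18 CPM in WT and 16.5 ± 5.83 CPM in KO (SD, n = 4, log2 change 1.07 ± 0.32, adjusted p = 0.0265). Only Cd3d had groups that did not overlap. The 3 calls were close to the threshold. Cd3d was not called without WT replicate 3 (adjusted p = 0.0586), WT replicate 4 (0.0604) or KO replicate 3 (0.0638), and Cd3e was not without KO replicate 4 (0.0527). Cd3g was not called without WT replicate 1 (0.0707), WT replicate 4 (0.0669), KO replicate 2 (0.0667), KO replicate 3 (0.0572) or KO replicate 4 (0.0654). Of 14 T cell markers, 11 could be tested, 4 were higher (the CD3 chains and Bcl11b) and 1, Trbc2, was lower. Cd8b1 had no count in any naive library, and Cd4 and Cd8a averaged 0.295 and 0.237 CPM in KO. The summed T cell markers ranged from 220 to 258 CPM in WT and from 246 to 319 CPM in KO (exact permutation p = 0.257). The part of T cells in the CD3 values was not tested.

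Fcgr2b, the inhibitory Fc receptor, was the only member of the Fc receptor list to fall. It was at 28.3, 29.5, 31.5 and 34.2 CPM in WT and 6.06, 5.01, 8.38 and 4.74 CPM in KO, with no overlap, a log2 change of -2.35 ± 0.25 (adjusted p = 1.62e-05). Fcrl6, an Fc receptor-like surface protein, was the only member that rose. It was at 3.55, 2.97, 3.53 and 2.28 CPM in WT and 3.87, 9.70, 10.2 and 9.48 CPM in KO, a log2 change of 1.45 ± 0.27 (adjusted p = 0.00155). KO replicate 1 lay just above the highest WT library. The remaining 6 of the 8 tested Fc receptor genes did not pass. B cells carry Fcgr2b, and none of their 8 tested markers passed, with a sum of 194 to 230 CPM in WT and 168 to 230 CPM in KO. Basophils carry it too. Of 9 mast cell and basophil markers 5 could be tested, 1 (Mcpt8) was lower and none was higher. Their summed level was 252 to 309 CPM in WT and 227 to 328 CPM in KO, nearly all of it Cma1, which did not pass (adjusted p = 0.924). Tpsb2 had no count in any naive library. Ms4a2 (0.143 to 0.653 CPM in WT), Fcer1a (0 to 0.941 CPM) and Prss34 (0 to 6.81 CPM) had no count in any KO library. Mcpt8 ranged from 0.286 to 2.35 CPM in WT and from 0 to 0.0802 CPM in KO. The part of basophils in the fall of Fcgr2b was not tested.

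Fcgr2b and Fcrl6 both lie on chromosome 1 near Fcer1g, and many other neighbours differed between the genotypes. Of 57 other tested genes within 2 Mb of Fcer1g, 11 were higher and 8 lower in KO. The lower ones were 5 with the 8 naive libraries fitted alone and 14 with the length and GC offset and KO replicate 1 left out. Within 10 Mb 25 of 158 were higher and 24 lower. Over all tested genes 11.1% were called higher and 9.22% lower, 20.3% together. Among receptors of the SLAM family, which regulate contacts between lymphocytes, Slamf6 was at 18.5, 18.2, 18.8 and 16.6 CPM in WT and 39.8, 49.5, 46.6 and 47.0 CPM in KO (log2 change 1.34 ± 0.17, adjusted p = 8.70e-05). Cd244, the receptor 2B4, was at 356, 314, 295 and 319.7 CPM in WT and 167, 204, 182 and 169 CPM in KO (log2 change -0.83 ± 0.10, adjusted p = 4.02e-05). The groups did not overlap for either gene, and the directions were opposite. Sh2d1b2, the adaptor ERT that acts downstream of SLAM receptors, was at 3.80, 3.33, 5.84 and 4.67 CPM in WT and 20.9, 18.3, 19.0 and 19.6 CPM in KO. Every KO library lay far above the highest WT one, a log2 change of 2.14 ± 0.20 (adjusted p = 4.51e-06). The related neighbour Sh2d1b1 was at 83.4 ± 11.2 CPM in WT and 72.6 ± 7.44 CPM in KO (SD, n = 4). It did not pass (log2 change -0.20 ± 0.11, adjusted p = 0.22). The part of reads assigned between these related genes was not tested.

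The HIN-200 family, whose members carry a pyrin or a DNA-binding domain and respond to interferon, lies 2.12 to 2.73 Mb from Fcer1g. Of its 10 tested genes 5 were lower and 2 higher in KO. Members are close copies of one another, so the counting could move reads between them. Pyhin1 was at 229, 236, 234 and 254 CPM in WT and 19.97, 40.8, 41.99 and 48.6 CPM in KO, with no overlap, a log2 change of -2.65 ± 0.20 (adjusted p = 3.04e-07). Pydc3 fell from 71.1 ± 6.27 CPM in WT to 11.5 ± 5.12 CPM in KO (SD, n = 4, log2 change -2.60 ± 0.29, adjusted p = 2.61e-05). Pydc4 fell from 13.2 ± 2.33 CPM in WT to 1.35 ± 0.558 CPM in KO (SD, n = 4, log2 change -3.34 ± 0.30, adjusted p = 3.40e-06). The predicted member Gm4955 fell from 72.7 ± 9.63 CPM in WT to 5.82 ± 1.19 CPM in KO (SD, n = 4, log2 change -3.66 ± 0.19, adjusted p = 6.72e-10). Ifi202b went the other way, with no count in any WT library and 0.965 to 1.89 CPM in KO. This is at least 45.1-fold higher against a floor of 3 counts over the WT group (adjusted p = 0.00057). Itln1, an intelectin that binds microbial sugars, likewise had no WT count and 0.586 to 2.52 CPM in KO, at least 44.3-fold higher (adjusted p = 0.00036). Pcp4l1, the neighbour 0.0333 Mb from Fcer1g, was at 0 to 0.0713 CPM in WT and 0.922 to 2.90 CPM in KO (adjusted p = 0.00372). Vangl2, a planar polarity protein, had no WT count and 0 to 0.631 CPM in KO, at least 13.0-fold higher (adjusted p = 0.0135). An effect of the Fcer1g knockout on its neighbours and an effect of a chromosome segment that came with it cannot be told apart, since the strain is not given and no other allele is present.

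**Figure D1:**
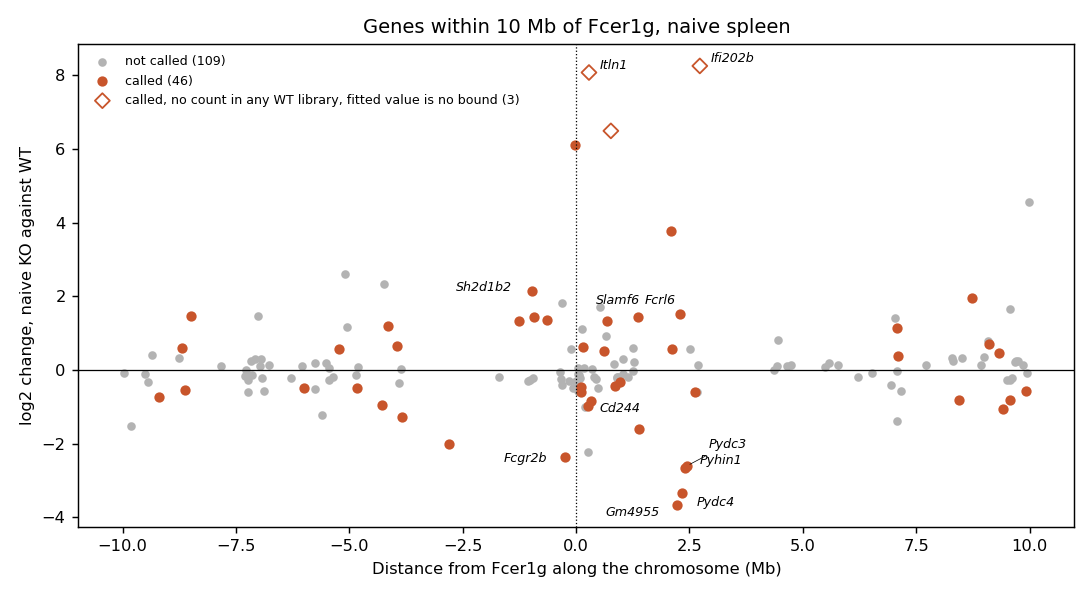
Log2 change of each tested gene within 10 Mb of Fcer1g, naive KO against naive WT, by distance from Fcer1g along the chromosome in Mb (Fcer1g itself is left out). Orange points passed the adjusted p of 0.05, grey ones did not, and open diamonds had no count in any WT library; the lowest points are the HIN-200 genes to the right of Fcer1g.

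Away from chromosome 1 the genotypes also differed widely. Over all 13344 genes 1475 were higher (11.1%) and 1230 lower (9.22%) in KO. The counts of gene lists below are to be read against these shares. Of the 13344 genes 12560 lay off chromosome 1, with 1387 higher and 1140 lower. A change of at least 2-fold was reached by 481 higher (3.60%) and 122 lower (0.914%) genes, 4.52% together. The level did not overlap between the groups for 2737 genes (20.5%), and 4511 had an unadjusted p under 0.05. Leaving out KO replicate 1 gave 1408 and 1019 genes, and leaving out WT replicate 3 gave 942 and 755. The median log2 change over all tested genes was -0.00070, so that the TMM scaling placed the middle of the distribution at no change.

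The direction of a change followed the length of the gene's exons. Of 1741 genes with under 1.5 kb of exons, 26 were higher and 226 lower, with a median log2 change of -0.30. Of 1132 genes with at least 10 kb of exons, 316 were higher and 42 lower, with a median of 0.34. The 3 classes between these had medians of -0.10, -0.02 and 0.10 in order of length. Without KO replicate 1 the medians of the shortest and longest classes were -0.29 and 0.34. In IL-15-treated spleen the same classes had KO against WT medians of -0.08 and 0.01. Genes with at least 10 kb of exons took 5.76% to 6.76% of the counts in WT and 7.32% to 8.42% in KO, with no overlap (exact permutation p = 0.0286, adjusted over 19 measures 0.0905). With an offset that removed the trend with length and GC content in each library, 989 genes were higher and 1022 lower, so that higher genes made up 49.2% of calls in place of 54.5%. Leaving out KO replicate 1 as well, 967 were higher and 1302 lower (42.6% higher). The part of library quality in the length trend was not tested.

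**Figure D2:**
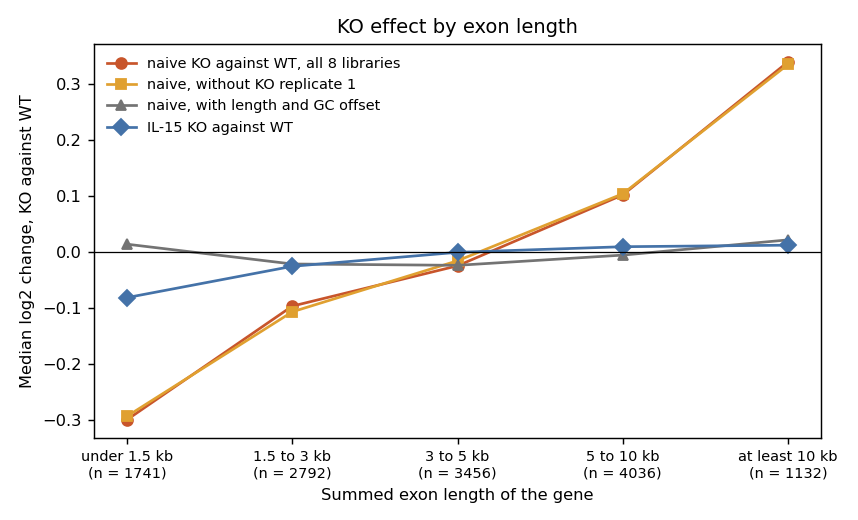
Median log2 change, KO against WT, over tested genes in 5 classes of exon length, for naive spleen, naive spleen without KO replicate 1, naive spleen with the length and GC offset, and IL-15-treated spleen. In naive spleen the median rose from -0.30 under 1.5 kb to 0.34 at 10 kb and over; with the offset and in IL-15-treated spleen it stayed between -0.08 and 0.02.

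Chaperones were lower in KO across several complexes. These proteins fold new polypeptides and refold damaged ones. HSP70 binds exposed stretches with the help of J-domain proteins and exchange factors, HSP90 finishes kinases and receptors with a set of cochaperones, and the ring complex CCT folds actin and tubulin. Of 30 tested genes of the HSP70 system, 11 were lower and none higher (median log2 change -0.32). Of 19 genes of HSP90 and its cochaperones 13 were lower and 1 higher (median -0.52). Of 14 genes of CCT and prefoldin 10 were lower and none higher (median -0.52). With the length and GC offset 9, 12 and 5 members of these lists were lower. The HSP70 count was 7 without KO replicate 1 and 7 without WT replicate 3.

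A sequence was looked for in this group, the pattern that heat shock factors recognise in promoters of chaperone genes, written GAANNTTCNNGAA here. It was searched on both strands (as TTCNNGAANNTTC on the other). Windows from 250 bases before to 50 after each RefSeq gene start (GRCm38.p6) were at hand for 8802 tested genes, and 48 of these genes (0.545%) held the pattern. Among genes of the 4 lists of cytosolic and mitochondrial chaperones with a window, 4 of the 30 that were lower in KO held it (13.3%), namely Hsph1, Hspe1, Hspd1 and Chordc1. It was in 1 of the 33 that were not lower (3.03%: Dnajb6, an HSP40 protein which did not pass). Hspe1 and Hspd1 lie head to head, so they do not count as separate promoters. The shorter form GAANNTTC was in 619 of the 8802 genes (7.03%), 7 of the 30 (23.3%) and 5 of the 33 (15.2%). Those 5 were Hspa1a, Hspa1b, Hspb1, Bag3 and Dnajb6. Some genes lower in KO had no window and are in neither count, among them Hspa8, Hsp90aa1, Hsp90ab1, St13 and Cct4. The matched stretches are shown for Hsph1 and Chordc1, where they lie at the gene start. For Hspe1 the sequence is the 250 bases before its start, which Hspe1 and Hspd1 share head to head. Bases of the pattern are in capitals and all are written 5′ to 3′ on the gene's strand.
Hsph1, chr5:149636280-149636309, minus strand: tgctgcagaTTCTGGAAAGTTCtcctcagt
Chordc1, chr9:18292259-18292288, plus strand: accgGAACGTTCGGGAAAATTCCTGAAgca
Hspe1, chr1:55087898-55088147, plus strand: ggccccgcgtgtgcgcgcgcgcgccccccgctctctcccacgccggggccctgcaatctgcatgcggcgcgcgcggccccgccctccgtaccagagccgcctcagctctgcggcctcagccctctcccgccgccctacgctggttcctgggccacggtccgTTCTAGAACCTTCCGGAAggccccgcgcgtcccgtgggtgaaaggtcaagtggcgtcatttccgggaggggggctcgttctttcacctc
A match is a description of these letters and not a measured binding site. The part of heat shock factors in the lower levels was not tested.

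Hsph1, the HSP110 exchange factor of HSP70 whose start is shown above, was the chaperone with the largest fall. Its levels were 166, 401, 227 and 293 CPM in WT replicates 1 to 4 and 78.1, 43.2, 36.5 and 37.8 CPM in KO. All 4 KO libraries lay below all WT libraries, with KO replicate 1 the highest of the KO. This was a log2 change of -2.48 ± 0.25 (adjusted p = 9.57e-06), or -2.79 without KO replicate 1. Hspa8, the constitutive HSC70, was at 2744, 5549, 5003 and 5261 CPM in WT and 1362, 1726, 1590.4 and 1600.1 CPM in KO (log2 change -1.56 ± 0.17, adjusted p = 1.46e-05). Its J-domain partner Dnaja1 was at 234, 556, 371 and 342 CPM in WT and 121, 116, 135 and 141 CPM in KO (log2 change -1.55 ± 0.18, adjusted p = 3.92e-05). For both, WT replicate 1 was the lowest of the WT libraries and the KO libraries were narrowly spread below it. Dnajb1, another J-domain partner, fell from 187 ± 60.0 CPM in WT to 109.6 ± 11.8 CPM in KO (SD, n = 4, log2 change -0.77 ± 0.17, adjusted p = 0.00478). Hspa4l, a relative of Hsph1, fell from 46.7 ± 12.01 CPM in WT to 25.9 ± 1.91 CPM in KO (SD, n = 4, log2 change -0.85 ± 0.19, adjusted p = 0.00551). The stress-inducible Hspa1a and Hspa1b were near or below 10 CPM in most libraries and were not called. Hspa1b ranged from 1.55 to 20.2 CPM in WT and 2.00 to 7.05 CPM in KO. These 2 genes are near-identical copies between which reads cannot be assigned with certainty.

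Both HSP90 genes of the cytosol fell. Hsp90aa1, the inducible form, was at 742, 1284, 817 and 764 CPM in WT and 362, 358, 381 and 355 CPM in KO, a log2 change of -1.31 ± 0.16 (adjusted p = 4.20e-05). Hsp90ab1, the constitutive form, was at 2245, 2031, 2027 and 2559.8 CPM in WT and 1205, 1175, 1239 and 1199.5 CPM in KO, a log2 change of -0.88 ± 0.10 (adjusted p = 3.98e-05). The KO libraries of Hsp90ab1 spanned less than the WT ones and lay wholly below them. Among the cochaperones, Stip1, which hands clients from HSP70 to HSP90, was at 201, 294, 195 and 270.4 CPM in WT and 113, 78.2, 74.3 and 63.7 CPM in KO (log2 change -1.55 ± 0.16, adjusted p = 1.36e-05). St13, which steadies HSP70 for that step, was at 248, 261, 298 and 286 CPM in WT and 118, 97.8, 133 and 114 CPM in KO (log2 change -1.24 ± 0.10, adjusted p = 1.21e-06). Fkbp4, the immunophilin of steroid receptor complexes, fell by a similar amount, from 254 ± 21.9 CPM in WT to 96.5 ± 24.2 CPM in KO (SD, n = 4, log2 change -1.401 ± 0.16, adjusted p = 2.49e-05). The groups were apart for all 3. The activators of the HSP90 ATPase Ahsa1 (log2 change -0.96 ± 0.12, adjusted p = 5.75e-05) and Ahsa2 (log2 change -1.52 ± 0.14, adjusted p = 3.40e-06), p23 (Ptges3, log2 change -0.93 ± 0.12, adjusted p = 6.83e-05) and Chordc1 (log2 change -1.29 ± 0.16, adjusted p = 6.83e-05) were lower with groups that did not overlap. Unc45a, a chaperone of myosin, was the 1 member called higher (log2 change 0.47 ± 0.15, adjusted p = 0.0308). The call ended with the length and GC offset (adjusted p = 0.404), without WT replicate 2 (0.111) or 3 (0.0675), and without KO replicate 1 (0.101) or 3 (0.0726).

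**Figure D3:**
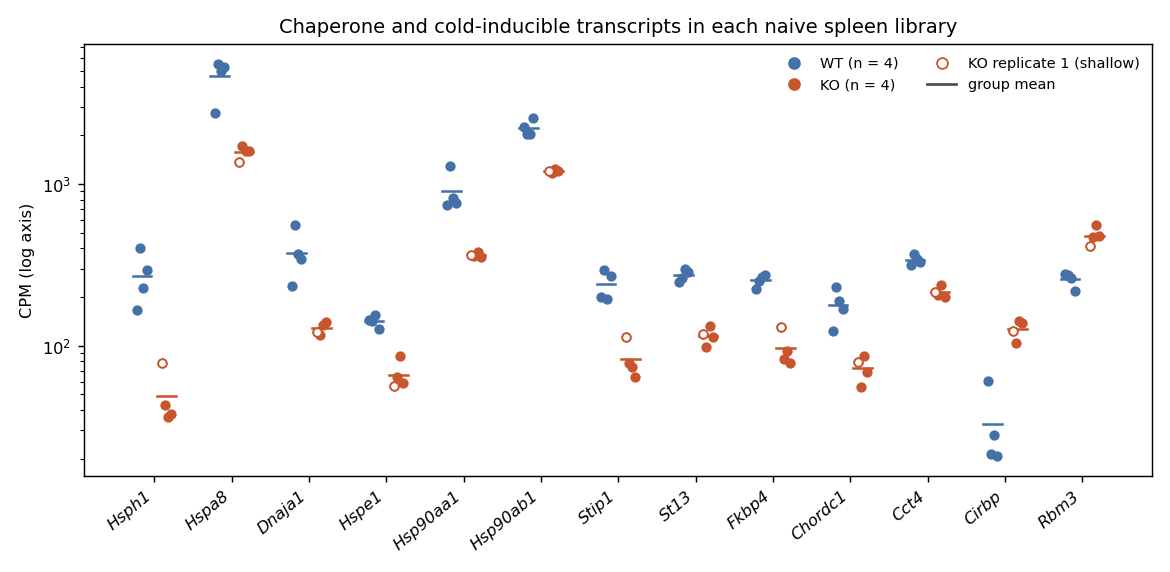
CPM in each of the 8 naive libraries (log axis) for chaperone genes and for the cold-inducible genes Cirbp and Rbm3, WT and KO side by side, with KO replicate 1 drawn open. For each chaperone shown the 4 KO libraries lay below the 4 WT libraries, and for Cirbp and Rbm3 they lay above them.

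The CCT subunit Cct4 was at 314, 371, 345 and 327 CPM in WT and 214, 206, 237 and 199 CPM in KO, with no overlap (log2 change -0.66 ± 0.11, adjusted p = 0.000471). Cct5 fell from 445 ± 32.1 CPM in WT to 279 ± 33.9 CPM in KO (SD, n = 4, log2 change -0.67 ± 0.13, adjusted p = 0.00187). Within mitochondria the paired chaperonins Hspe1 (HSP10) and Hspd1 (HSP60), which share the promoter shown above, were lower. Hspe1 was at 145, 143, 154 and 127 CPM in WT and 56.6, 64.0, 86.4 and 58.5 CPM in KO (log2 change -1.10 ± 0.20, adjusted p = 0.00104). Hspd1 was at 259 ± 61.6 CPM in WT and 151 ± 10.03 CPM in KO (SD, n = 4, log2 change -0.79 ± 0.14, adjusted p = 0.000941). Of 16 tested mitochondrial chaperones, import factors and proteases 4 were lower and none higher. The count was 2 without each of WT replicates 1, 2 and 3 and KO replicates 1, 2 and 4. In the endoplasmic reticulum 4 of 23 genes were higher and 4 lower, and 2 were higher with the offset or without WT replicate 3. The transducer Eif2ak3 (PERK) rose from 19.2 ± 3.65 CPM in WT to 35.2 ± 6.25 CPM in KO (SD, n = 4, log2 change 0.87 ± 0.18, adjusted p = 0.00291). The transcription factor Xbp1 (log2 change -0.68 ± 0.10, adjusted p = 0.000188) and the secreted factor Manf (log2 change -0.59 ± 0.14, adjusted p = 0.00679) fell. Hspa5 (BiP), the main chaperone there, was at 951 ± 134 CPM in WT and 806 ± 89.99 CPM in KO (SD, n = 4) and did not pass (log2 change -0.24 ± 0.12, adjusted p = 0.161). Ppp1r15a (GADD34), which reverses the translational block of stressed cells, rose from 14.98 ± 5.76 CPM in WT to 29.6 ± 6.03 CPM in KO (SD, n = 4, log2 change 0.98 ± 0.22, adjusted p = 0.00475).

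The cold-inducible RNA-binding proteins, which are made more when cells cool and less when they warm, were higher in KO. Cirbp was at 60.6, 21.3, 28.0 and 20.7 CPM in WT and 124, 104, 142 and 139 CPM in KO. WT replicate 1 lay above the other WT libraries and below every KO library, a log2 change of 1.96 ± 0.26 (adjusted p = 0.000102). Rbm3 was at 277, 275, 261 and 219 CPM in WT and 413, 469, 561 and 477 CPM in KO, a log2 change of 0.90 ± 0.12 (adjusted p = 0.000129). The splicing regulator Tra2a fell, at 50.3, 109, 107 and 75.3 CPM in WT and 49.9, 32.1, 32.3 and 36.5 CPM in KO (log2 change -1.18 ± 0.19, adjusted p = 0.000524). So did Srsf7 (log2 change -0.81 ± 0.14, adjusted p = 0.000796; with the length and GC offset adjusted p = 0.0996) and the RNA-binding protein Hnrnpa2b1 (log2 change -0.62 ± 0.11, adjusted p = 0.00128). Of 31 genes of the RNA-binding and clock list 7 were higher and 6 lower. The former were 4 without WT replicate 2, WT replicate 4 or KO replicate 4. Of the circadian clock, the repressor Nr1d1 was at 0 to 0.214 CPM in WT and 0.962 to 2.78 CPM in KO (log2 change 4.47 ± 1.03, adjusted p = 0.00606). Per1 rose from 16.8 ± 5.09 CPM in WT to 28.9 ± 5.38 CPM in KO (SD, n = 4, log2 change 0.78 ± 0.19, adjusted p = 0.00756; with the offset adjusted p = 0.0882). The other clock genes of the list, Per2, Per3, Cry1, Cry2, Arntl, Clock, Dbp, Tef, Nr1d2, Bhlhe40 and Bhlhe41, did not pass, with log2 changes from -0.88 (Bhlhe41) to 0.88 (Per3). P4ha1, a prolyl hydroxylase of collagen synthesis, was lower too, at 44.8, 104, 72.1 and 78.0 CPM in WT and 29.6, 26.3, 18.7 and 25.1 CPM in KO, with no overlap, a log2 change of -1.59 ± 0.20 (adjusted p = 5.75e-05).

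Large cytoskeletal and scaffold proteins were higher in KO. Of 37 tested genes of that list 28 were higher and none lower (median log2 change 0.98). Of 41 genes of large nuclear proteins 33 were higher and none lower (median 0.94). These lists were chosen with earlier results of these data known, and they hold long genes. Both bear on their counts, which are descriptions and no test of the lists. With the length and GC offset 19 and 21 were higher with medians of 0.49 and 0.48. With KO replicate 1 left out as well 17 and 22 were. Myh9, the heavy chain of non-muscle myosin IIA, had the largest change among them. It was at 145, 73.1, 59.8 and 123 CPM in WT and 883, 610.0, 421 and 498 CPM in KO. Every KO library exceeded every WT library, a log2 change of 2.59 ± 0.27 (adjusted p = 1.36e-05). The log2 change was 1.96 with the offset. Tln1 (talin), which ties integrins to actin, was at 319.6, 211, 126 and 356 CPM in WT and 1335, 954, 844 and 887 CPM in KO (log2 change 1.99 ± 0.25, adjusted p = 6.75e-05). Ahnak, a giant scaffold beneath the plasma membrane, was at 599, 394, 344 and 539 CPM in WT and 1919, 1747, 971 and 1489.6 CPM in KO (log2 change 1.71 ± 0.25, adjusted p = 0.000207), and KO replicate 3 was the lowest of its KO libraries. The linker plectin (Plec, log2 change 1.88 ± 0.26, adjusted p = 0.00013) and the dynein heavy chain (Dync1h1, log2 change 1.73 ± 0.25, adjusted p = 0.000199) rose too. The actin crosslinker Flna did not pass, at 1605 ± 299 CPM in WT and 2159 ± 268 CPM in KO (SD, n = 4, log2 change 0.43 ± 0.16, adjusted p = 0.0687).

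In the nucleus, the ATPase subunit of the BAF remodelling complex, Smarca4, was at 48.5, 31.0, 26.6 and 43.0 CPM in WT and 80.2, 109, 80.7 and 87.9 CPM in KO, a log2 change of 1.26 ± 0.16 (adjusted p = 5.75e-05). Its partner Arid1a rose from 79.0 ± 15.4 CPM in WT to 166 ± 28.3 CPM in KO (SD, n = 4, log2 change 1.07 ± 0.16, adjusted p = 0.000279). Chd4, the remodeller of the NuRD complex, rose from 200.4 ± 54.6 CPM in WT to 449 ± 106 CPM in KO (SD, n = 4, log2 change 1.16 ± 0.18, adjusted p = 0.000381). The splicing scaffold Srrm2 rose from 61.3 ± 16.2 CPM in WT to 167 ± 28.4 CPM in KO (SD, n = 4, log2 change 1.44 ± 0.23, adjusted p = 0.000524), and the repair protein Brca2 from 0.814 ± 0.315 CPM in WT to 3.23 ± 0.479 CPM in KO (SD, n = 4, log2 change 1.99 ± 0.28, adjusted p = 0.000159). The groups were apart for these 5 genes, and the calls held with the offset, with log2 changes of 0.94, 0.48, 0.85, 0.96 and 1.76.

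The lists of ribosomal proteins and of ribosome biogenesis differed in direction, and also in exon length (medians of 1781 and 4130 bases). Of 79 tested ribosomal protein genes 30 were lower and none higher (median log2 change -0.50, or -0.34 with the length and GC offset). Of 51 genes of ribosome biogenesis and MYC response 16 were higher and 4 lower (median 0.22, or 0.098 with the offset). The lower ones were 1 without KO replicate 1 or WT replicate 3, 2 without WT replicate 4 or KO replicate 2 or 4, and 1 with the 8 naive libraries fitted alone. Rps15a was at 1418, 1466, 1605 and 1193 CPM in WT and 544, 819, 950.2 and 863 CPM in KO (log2 change -0.84 ± 0.20, adjusted p = 0.00646), with KO replicate 1 the lowest. Rpl27 fell from 584 ± 52.5 CPM in WT to 347 ± 79.5 CPM in KO (SD, n = 4, log2 change -0.75 ± 0.17, adjusted p = 0.00483) and the stalk protein Rplp0 from 2963 ± 266 CPM in WT to 2067 ± 215 CPM in KO (SD, n = 4, log2 change -0.52 ± 0.12, adjusted p = 0.00646). The number of ribosomal protein genes called depended on the libraries. There were 17 lower without KO replicate 1, 17 without WT replicate 2, 12 without WT replicate 3, 24 with the offset, and 46 when the 8 naive libraries were fitted alone. Their summed share of counts was 9.03% to 10.9% in WT and 7.42% to 9.19% in KO, ranges that overlapped (exact permutation p = 0.0571). Ribosomal protein genes have many processed copies in the genome, so the counting of reads could split between them.

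On the biogenesis side, Nolc1, a nucleolar phosphoprotein, was at 27.4, 22.2, 13.4 and 18.1 CPM in WT and 42.3, 40.3, 39.1 and 38.6 CPM in KO (log2 change 0.98 ± 0.15, adjusted p = 0.000383). The pre-rRNA factors Mybbp1a (log2 change 1.04 ± 0.18, adjusted p = 0.00075) and Rrp12 (log2 change 1.09 ± 0.20, adjusted p = 0.00118) and the large subunit of RNA polymerase I, Polr1a (log2 change 0.83 ± 0.17, adjusted p = 0.00264), rose, each with groups apart. Myc itself was at 58.1, 49.9, 38.2 and 51.9 CPM in WT and 49.97, 54.5, 49.2 and 49.3 CPM in KO, with overlapping groups (log2 change 0.04 ± 0.12, adjusted p = 0.872). The cationic amino acid transporter Slc7a1 was at 42.8, 42.9, 40.5 and 44.9 CPM in WT and 78.8, 92.0, 66.9 and 73.0 CPM in KO (log2 change 0.86 ± 0.13, adjusted p = 0.000327). The large neutral one Slc7a5 rose from 8.02 ± 4.36 CPM in WT to 16.9 ± 2.53 CPM in KO (SD, n = 4, log2 change 1.07 ± 0.24, adjusted p = 0.00469), and the valine tRNA synthetase Vars from 151 ± 16.8 CPM in WT to 254 ± 42.6 CPM in KO (SD, n = 4, log2 change 0.75 ± 0.12, adjusted p = 0.000608). Ddit4, an inhibitor of mTORC1, was lower, at 131 ± 34.6 CPM in WT and 79.5 ± 9.63 CPM in KO (SD, n = 4, log2 change -0.72 ± 0.16, adjusted p = 0.00566). In the list of amino acid supply and tRNA charging to which they belong, 6 of 30 genes were higher and 3 lower, or 1 lower without KO replicate 4 and with the 8 naive libraries fitted alone. Of 39 proteasome genes 12 were lower and none higher, among them Psmb1 (log2 change -0.58 ± 0.16, adjusted p = 0.0163) and Psmb2 (log2 change -0.63 ± 0.17, adjusted p = 0.0132). With the offset 4 were lower, and leaving out single libraries gave 5 (WT replicates 1 and 2), 6 (WT replicate 3, KO replicates 1 and 2) or 7 (KO replicate 4).

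Nuclear genes of oxidative phosphorylation were lower, 25 of 65 with none higher (median log2 change -0.39). Ndufb6, a subunit of complex I, was at 47.6, 44.6, 46.5 and 43.4 CPM in WT and 15.3, 22.8, 30.2 and 25.9 CPM in KO (log2 change -0.94 ± 0.20, adjusted p = 0.00333). Atp5c1, of the ATP synthase, fell from 236 ± 24.3 CPM in WT to 151 ± 16.1 CPM in KO (SD, n = 4, log2 change -0.64 ± 0.12, adjusted p = 0.00134). The list had a median exon length of 1828 bases, against 4110 over all tested genes. With the offset 10 were lower (median log2 change -0.21). Without WT replicate 1, 2 or 3 the counts were 13, 12 and 12, and without KO replicate 1, 2 or 4 they were 13, 13 and 16. None of the 15 mitochondrially encoded genes passed. Of 30 genes of glycolysis and hypoxia response 4 were higher and 2 lower (13.3% and 6.67%, near the 11.1% and 9.22% of all genes). The direction depended on the processing, with 2 higher and 5 lower under the offset (3 and 6 with KO replicate 1 left out as well) and 2 higher without WT replicate 3. Pdk1, which keeps pyruvate out of mitochondria, rose from 18.8 ± 3.14 CPM in WT to 32.9 ± 9.27 CPM in KO (SD, n = 4, log2 change 0.81 ± 0.17, adjusted p = 0.00291). In sterol and fatty acid metabolism 9 of 42 were higher and 3 lower, and 5 and 1 with the offset. There was 1 lower without WT replicate 2 or 3 or KO replicate 2. Fasn, the fatty acid synthase, was at 149, 116, 103 and 168 CPM in WT and 358, 285, 249.9 and 254 CPM in KO (log2 change 1.10 ± 0.17, adjusted p = 0.000436). Srebf2, the transcription factor of sterol synthesis, rose from 64.9 ± 10.8 CPM in WT to 112 ± 13.2 CPM in KO (SD, n = 4, log2 change 0.79 ± 0.13, adjusted p = 0.000524), and the cholesterol exporter Abca1 from 52.3 ± 10.3 CPM in WT to 121 ± 19.5 CPM in KO (SD, n = 4, log2 change 1.21 ± 0.27, adjusted p = 0.00474).

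**Figure D4:**
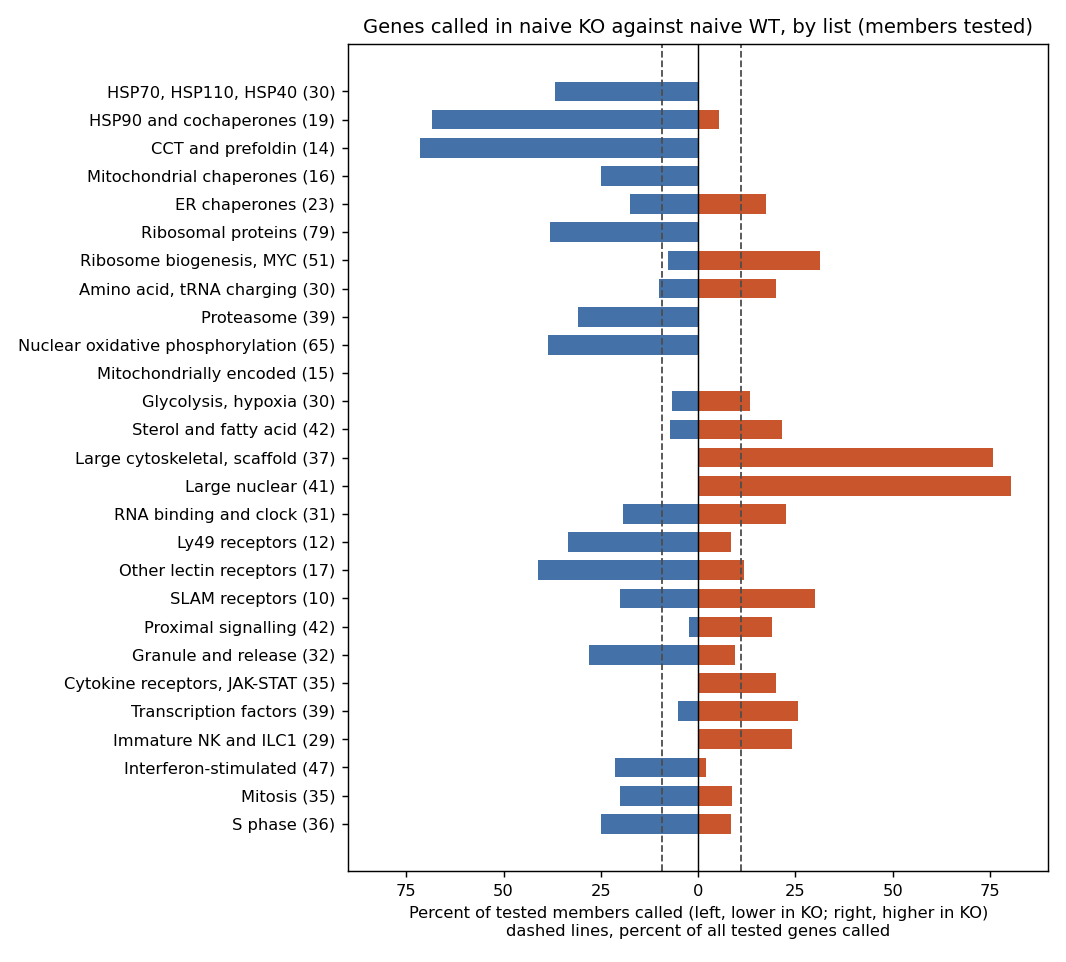
Percent of the tested members of each gene list that were called lower (left) or higher (right) in naive KO, with the number tested in parentheses; dashed lines mark the 9.22% and 11.1% of all tested genes. Chaperone, ribosomal protein and oxidative phosphorylation lists extend to the left, and the lists of large cytoskeletal and nuclear proteins to the right. The lists were chosen with earlier results of these data known.

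NK receptors of the lectin families were lower in part. Of 12 tested Ly49 genes 4 were lower and 1 higher. Klra8 (Ly49H), the activating receptor for a viral ligand that signals through DAP12, was at 1283, 1376, 1437 and 1140.1 CPM in WT and 468, 744, 747 and 664 CPM in KO (log2 change -0.997 ± 0.15, adjusted p = 0.00038). Klra4 (Ly49D), another activating member, was at 1463, 1608, 1701 and 1380.3 CPM in WT and 527, 971, 837 and 843 CPM in KO (log2 change -0.95 ± 0.17, adjusted p = 0.00135). All KO libraries lay below all WT ones, with KO replicate 1 lowest for both. Klra6 went up from 19.9 ± 3.74 CPM in WT to 29.3 ± 2.32 CPM in KO (SD, n = 4, log2 change 0.56 ± 0.15, adjusted p = 0.0122). With the offset 4 Ly49 genes were higher and 2 lower, so the direction over the family depends on it. The genes are close copies between which the counting could split reads. Among the other lectin-like receptors 7 of 17 were lower and 2 higher. Klre1, which pairs with KLRI chains, was at 938, 848, 986 and 853 CPM in WT and 354, 468, 445 and 419 CPM in KO (log2 change -1.10 ± 0.14, adjusted p = 5.75e-05). Klrb1a, of the NKR-P1 family, fell from 246 ± 28.7 CPM in WT to 157 ± 38.9 CPM in KO (SD, n = 4, log2 change -0.65 ± 0.16, adjusted p = 0.00897; with the offset adjusted p = 0.0585).

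Clec2d, the ligand of an inhibitory NKR-P1 receptor, rose against that direction, at 23.6, 15.8, 15.95 and 17.1 CPM in WT and 34.7, 57.5, 36.2 and 43.1 CPM in KO (log2 change 1.24 ± 0.18, adjusted p = 0.000261). CD94 (Klrd1) was lower, at 835 ± 45.6 CPM in WT and 643 ± 82.0 CPM in KO (SD, n = 4, log2 change -0.38 ± 0.11, adjusted p = 0.0261). With the offset its log2 change was 0.33 (adjusted p = 0.0947), and it was not called without WT replicate 1 (0.0599) or 3 (0.0524) or KO replicate 1 (0.0672) or 4 (0.0519). NKG2D (Klrk1) did not pass (log2 change -0.24 ± 0.15, adjusted p = 0.265). The 7 lower lectin-like genes became 1 with the offset, 3 without WT replicate 3, KO replicate 1 or KO replicate 4, and 4 without WT replicate 4.

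Signalling proteins near the receptors were higher more often than lower, 8 of 42 against 1. SYK, the kinase that docks on FcRγ, rose, at 225, 173, 149 and 234 CPM in WT and 356, 318, 277 and 313 CPM in KO (log2 change 0.70 ± 0.14, adjusted p = 0.00266). Its relative Zap70 was at 225 ± 24.2 CPM in WT and 256 ± 29.7 CPM in KO (SD, n = 4) and did not pass (log2 change 0.19 ± 0.12, adjusted p = 0.277). The catalytic subunit Pik3cd of PI3K rose from 384 ± 70.6 CPM in WT to 581 ± 96.2 CPM in KO (SD, n = 4, log2 change 0.60 ± 0.14, adjusted p = 0.00694; with the offset adjusted p = 0.0894). The kinase Lck did not pass (log2 change -0.20 ± 0.09, adjusted p = 0.132). With the offset 3 members were higher and 4 lower, and 5 were higher without WT replicate 3. The Syk call held with the offset (adjusted p = 0.0436) but not with KO replicate 1 also left out (0.0626).

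The killing machinery was lower in part. Of 32 genes of granules and their release 9 were lower and 3 higher, and 5 were lower without WT replicate 3. Of the serpins, protease inhibitors that include a shield against the cell's own granzymes, Serpinb9 and Serpinb6b fell, while Serpinb9b (log2 change -0.32, adjusted p = 0.463) and Serpinb6a (0.26, adjusted p = 0.213) did not pass. Serpinb9 was at 654, 711, 1118 and 1054 CPM in WT and 333, 516, 528 and 496 CPM in KO (log2 change -0.92 ± 0.17, adjusted p = 0.0017). Serpinb6b was at 344, 416, 659.6 and 671 CPM in WT and 201, 311, 280.1 and 274 CPM in KO (log2 change -0.97 ± 0.18, adjusted p = 0.00142). In both, WT replicates 3 and 4 were higher than WT replicates 1 and 2, and all KO libraries were lower still. Granzyme K (Gzmk) fell, at 6.29, 11.4, 20.6 and 17.2 CPM in WT and 5.17, 5.09, 4.42 and 5.92 CPM in KO (log2 change -1.43 ± 0.33, adjusted p = 0.0062). Granzyme A (Gzma) was at 8897 ± 725 CPM in WT and 6149 ± 819 CPM in KO (SD, n = 4, log2 change -0.53 ± 0.16, adjusted p = 0.0267). It had a log2 change of 0.033 under the offset and no call without WT replicate 3 (adjusted p = 0.0705) or KO replicate 2 (0.0502) or 4 (0.0764). Granzyme B (Gzmb) was at 659.6 ± 137 CPM in WT and 468 ± 95.7 CPM in KO (SD, n = 4, log2 change -0.49 ± 0.17, adjusted p = 0.0435), and its groups overlapped. It was not called with the offset (adjusted p = 0.566) or without WT replicate 3 (0.113) or 4 (0.128) or KO replicate 1 (0.114), 3 (0.0708) or 4 (0.0887). Perforin (Prf1) did not pass (log2 change -0.14 ± 0.12, adjusted p = 0.458). Lyst, which sorts lysosome-related granules, rose from 23.4 ± 8.15 CPM in WT to 60.8 ± 8.34 CPM in KO (SD, n = 4, log2 change 1.37 ± 0.28, adjusted p = 0.00267).

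Of 19 cytokine and chemokine genes 2 were lower (10.5%, against 9.22% of all genes) and none higher. With the offset 2 were higher and 1 lower, and 1 was lower without WT replicate 2, 3 or 4 or KO replicate 1 or 4. Ccl6, a chemokine of myeloid cells, was at 8.37, 5.29, 7.15 and 7.38 CPM in WT and 0.993, 1.36, 0.270 and 0.881 CPM in KO, with all KO libraries below all WT libraries, a log2 change of -3.005 ± 0.54 (adjusted p = 0.00108). Mcpt8, Ms4a2, Fcer1a and Prss34 were at or near 0 in the same KO libraries, and the part of basophils in the fall of Ccl6 was not tested. Ccl5, which NK cells store in large amounts, was at 4265 ± 718 CPM in WT and 3139.9 ± 883 CPM in KO (SD, n = 4) and did not pass (log2 change -0.44 ± 0.18, adjusted p = 0.0837).

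Components of cytokine signalling rose, 7 of 35 receptors, kinases and STATs with none lower, and 4 without WT replicate 3. The shared IL-2 and IL-15 receptor chain Il2rb did not pass (log2 change 0.06 ± 0.11, adjusted p = 0.741). Jak2 was at 86.6, 79.0, 78.8 and 97.2 CPM in WT and 146, 117, 105 and 126 CPM in KO (log2 change 0.53 ± 0.13, adjusted p = 0.00753). Stat5a rose from 44.1 ± 3.53 CPM in WT to 60.3 ± 3.27 CPM in KO (SD, n = 4, log2 change 0.45 ± 0.11, adjusted p = 0.00855; with the offset adjusted p = 0.881). The survival kinase Pim2 was at 115, 121, 77.8 and 92.0 CPM in WT and 182, 139, 189.8 and 171 CPM in KO (log2 change 0.75 ± 0.14, adjusted p = 0.00157). Pim1 rose from 197 ± 36.3 CPM in WT to 284 ± 44.9 CPM in KO (SD, n = 4, log2 change 0.53 ± 0.13, adjusted p = 0.0086). Targets of STAT5 that feed back on it did not move as one. Socs2 rose, at 4.86, 4.85, 7.20 and 5.28 CPM in WT and 14.4, 13.1, 14.6 and 11.7 CPM in KO (log2 change 1.28 ± 0.20, adjusted p = 0.000379). Socs3 rose from 37.4 ± 12.9 CPM in WT to 65.6 ± 12.1 CPM in KO (SD, n = 4, log2 change 0.81 ± 0.19, adjusted p = 0.00673), whereas Cish fell from 16.5 ± 4.80 CPM in WT to 8.37 ± 1.75 CPM in KO (SD, n = 4, log2 change -0.998 ± 0.19, adjusted p = 0.00191).

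Transcription factors were higher in 10 of 39 cases and lower in 2, with 6 higher under the offset and 6 without WT replicate 3. There were 4 lower with the offset and KO replicate 1 left out, and 1 without WT replicate 1. Bach2, a repressor of effector genes, was at 18.2, 14.5, 15.2 and 19.0 CPM in WT and 27.2, 34.8, 27.5 and 45.2 CPM in KO (log2 change 1.02 ± 0.17, adjusted p = 0.000524). Bcl11b, a factor of T cells and of some innate lymphocytes, was at 4.33, 3.65, 2.02 and 3.74 CPM in WT and 11.2, 10.8, 7.98 and 12.04 CPM in KO (log2 change 1.61 ± 0.26, adjusted p = 0.000538). Rora (log2 change 1.01 ± 0.18, adjusted p = 0.000984) and Helios (Ikzf2, log2 change 1.34 ± 0.27, adjusted p = 0.00226), factors of other innate lymphoid cells and of immature NK cells, rose too, each with groups apart. Batf fell from 33.1 ± 2.69 CPM in WT to 20.5 ± 4.65 CPM in KO (SD, n = 4, log2 change -0.68 ± 0.16, adjusted p = 0.00546). Id2, which every innate lymphoid lineage needs, fell from 774 ± 49.8 CPM in WT to 551 ± 133 CPM in KO (SD, n = 4, log2 change -0.49 ± 0.14, adjusted p = 0.021). Id2 was not called with the offset (adjusted p = 0.0636) or without WT replicate 1 (0.0514). The factors that define NK cells did not pass. T-bet (Tbx21) had log2 change -0.05 ± 0.13, adjusted p = 0.819 and Eomes had log2 change 0.09 ± 0.12, adjusted p = 0.631.

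Of 29 markers of immature NK cells and of type 1 innate lymphoid cells (ILC1) 7 were higher and none lower. The receptor Kit was at 128, 110.2, 81.7 and 103 CPM in WT and 135, 204, 194 and 242 CPM in KO (log2 change 0.87 ± 0.19, adjusted p = 0.00345). The membrane proteins Tmem176a (log2 change 1.34 ± 0.25, adjusted p = 0.00144) and Tmem176b (log2 change 1.03 ± 0.22, adjusted p = 0.00344) rose with groups apart. Summed over 8 genes, ILC1 markers ranged from 107 to 128 CPM in WT and from 129 to 184 CPM in KO (exact permutation p = 0.0286, adjusted 0.0905). Of these 8 genes only Tmem176a and Tmem176b passed. Among the rest, Il7r (log2 change 0.59, adjusted p = 0.0728), Cxcr6 (0.19, adjusted p = 0.678) and Tnfsf10 (-0.17, adjusted p = 0.487) did not. Whether ILC1 or immature cells were more frequent was not tested. Of 23 integrins and adhesion genes 7 were higher and 1 lower, with 4 and none under the offset. There were 2 higher without WT replicate 3, 3 without WT replicate 2 or KO replicate 2, and 4 without KO replicate 4. Itga5, the fibronectin receptor, rose from 21.4 ± 5.70 CPM in WT to 39.0 ± 3.80 CPM in KO (SD, n = 4, log2 change 0.86 ± 0.16, adjusted p = 0.00158), and Itgam (CD11b), a marker of mature NK cells, did not pass (log2 change 0.17 ± 0.16, adjusted p = 0.468). Of 19 genes of mature circulating NK cells 5 were lower, Gzma, Gzmb and Lgals1 among them, and 1 was higher. With the offset 3 were lower and 1 higher. Leaving out single naive libraries gave 1 to 5 lower, with 2 lower without KO replicate 1.

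Immediate early and NF-κB response genes were higher in 7 of 39 cases and lower in 2. With the offset and KO replicate 1 left out 4 were higher, and 1 was lower with the offset or without any one of WT replicates 1, 3 and 4 and KO replicates 3 and 4. Jun was at 52.4, 33.5, 18.5 and 34.9 CPM in WT and 106, 52.1, 55.0 and 60.7 CPM in KO, with KO replicate 1 far above the others (log2 change 0.97 ± 0.24, adjusted p = 0.00963; 0.68 without that library). Nfkbiz was at 11.4, 5.45, 6.73 and 11.6 CPM in WT and 30.8, 17.4, 20.4 and 17.1 CPM in KO (log2 change 1.27 ± 0.23, adjusted p = 0.00106). Tnfaip3 (A20) rose from 101 ± 21.6 CPM in WT to 167 ± 40.3 CPM in KO (SD, n = 4, log2 change 0.72 ± 0.16, adjusted p = 0.00475). Crem, the cyclic AMP response modulator, fell, at 24.3, 29.9, 35.3 and 33.3 CPM in WT and 10.8, 16.4, 15.6 and 16.5 CPM in KO (log2 change -1.04 ± 0.16, adjusted p = 0.000313). Interferon-stimulated genes were lower in 10 of 47 cases (5 with the 8 naive libraries fitted alone) and higher in 1. The GTPase Ifi47 was at 411, 529.8, 500.4 and 447 CPM in WT and 262, 310.3, 347 and 262 CPM in KO (log2 change -0.68 ± 0.12, adjusted p = 0.000813). It, Irgm1 (log2 change -0.55 ± 0.13, adjusted p = 0.00578) and Gbp8 (log2 change -0.84 ± 0.15, adjusted p = 0.00121) all fell with groups apart. Genes of MHC class I did not follow them, with 4 of 19 higher and 1 lower. Nlrc5, their transactivator, rose from 24.8 ± 7.84 CPM in WT to 57.3 ± 7.92 CPM in KO (SD, n = 4, log2 change 1.21 ± 0.21, adjusted p = 0.00103). H2-Q6, a nonclassical class I gene with close copies, rose from 561 ± 132 CPM in WT to 1022 ± 125 CPM in KO (SD, n = 4, log2 change 0.86 ± 0.16, adjusted p = 0.00135), while H2-D1 did not pass (log2 change 0.22 ± 0.11, adjusted p = 0.171).

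Cell cycle genes were lower more often than higher, 9 against 3 of 36 S phase genes and 7 against 3 of 35 mitotic genes. The mitotic counts depended on single libraries. There were 2 lower without WT replicate 2 or KO replicate 2, 3 without KO replicate 4, 4 without WT replicate 3, WT replicate 4 or KO replicate 1, and 6 were higher without WT replicate 4. With the 8 naive libraries fitted alone the direction turned, with 3 S phase genes higher and 2 lower, and 1 mitotic gene higher and 0 lower. The higher S phase genes included the maintenance methyltransferase Dnmt1, at 74.5, 59.8, 38.0 and 85.6 CPM in WT and 125, 130.5, 108 and 125 CPM in KO (log2 change 0.92 ± 0.19, adjusted p = 0.00266), and the DNA polymerase subunit Pole (log2 change 1.33 ± 0.25, adjusted p = 0.0014). The D-type cyclins Ccnd2 (log2 change -0.47 ± 0.12, adjusted p = 0.00839) and Ccnd3 (log2 change -0.49 ± 0.10, adjusted p = 0.00188), which start the cycle, fell, the latter at 589, 669, 584 and 579.9 CPM in WT and 427, 413, 434 and 448 CPM in KO. Lgals1, a galectin made by activated lymphocytes, fell from 1006 ± 77.4 CPM in WT to 692 ± 91.8 CPM in KO (SD, n = 4, log2 change -0.54 ± 0.14, adjusted p = 0.0119).

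Beyond the lists, the largest rises among named genes with at least 1 CPM on average and groups apart were in genes at low levels. Plekha6, a protein of cell junctions, was at 0.204, 0.441, 0.424 and 0.856 CPM in WT and 9.04, 3.17, 1.31 and 2.43 CPM in KO, where KO replicate 1 was above every other library (log2 change 3.01 ± 0.74, adjusted p = 0.00839; 2.24 without it). Ccdc88c, a scaffold of Wnt and G protein signalling, was at 11.7, 5.97, 6.49 and 8.41 CPM in WT and 48.2, 38.0, 27.7 and 31.7 CPM in KO (log2 change 2.15 ± 0.25, adjusted p = 3.76e-05). The receptor for vasoactive intestinal peptide, Vipr1, rose from 2.09 ± 1.10 CPM in WT to 8.94 ± 4.39 CPM in KO (SD, n = 4, log2 change 2.08 ± 0.42, adjusted p = 0.00253). Lrrc29 (log2 change 2.49 ± 0.62, adjusted p = 0.00966), the NAD synthesis enzyme Nmnat2 (log2 change 2.12 ± 0.53, adjusted p = 0.00918), the nicotinic receptor subunit Chrnb2 (log2 change 2.08 ± 0.44, adjusted p = 0.00366), Eml6 (log2 change 2.14 ± 0.63, adjusted p = 0.0227), Wdr86 (log2 change 2.77 ± 0.83, adjusted p = 0.0253) and the sialyltransferase St6gal1 (log2 change 2.24 ± 0.69, adjusted p = 0.0282) belonged to the same set, as did Myh9 and Sh2d1b2. The calls of Eml6, Wdr86 and St6gal1 ended without KO replicate 1 (adjusted p = 0.0676, 0.0789 and 0.0732). That of St6gal1 also ended without WT replicate 1 (0.0684), WT replicate 3 (0.0841) or KO replicate 4 (0.0506). The 12 largest falls were led by the chromosome 1 genes, Ccl6 and Hsph1, and included Xlr4c (log2 change -1.88 ± 0.57, adjusted p = 0.0257). Its call ended without WT replicate 1 (0.0669), WT replicate 3 (0.0727) or KO replicate 3 (0.0528).

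The same genotype contrast in IL-15-treated spleen cells called 11 genes higher (0.0824%) and 7 lower (0.0525%) of the same 13344 (0.135% together), with 211 at an unadjusted p under 0.05. To ask whether the effect of KO differed between the states, the difference of the 2 effects was tested in the same fit of 16 libraries. In the naive state 142 genes (1.06%) had a more positive and 63 (0.472%) a more negative effect (205 genes, 1.54%). These counts depended on single libraries. There were 375 genes without naive WT replicate 1 and 714 without IL-15 WT replicate 2. There were between 83 and 125 without naive WT replicate 2 (88) or 3 (104), naive KO replicate 2 (116) or 4 (118), IL-15 WT replicate 1 (118), 3 (100) or 4 (84), or IL-15 KO replicate 1 (125), 2 (88) or 4 (83).

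The chaperones differed between the states. For Hsph1 the log2 change was -2.48 in naive and 0.02 in IL-15-treated cells (difference -2.504 ± 0.34, adjusted p = 0.00191). For Hspa8 it was -1.56 and 0.05 (-1.61 ± 0.23, adjusted p = 0.00197). For St13 it was -1.24 and -0.06 (-1.18 ± 0.14, adjusted p = 0.000656), and for Stip1 -1.55 and 0.03 (-1.58 ± 0.22, adjusted p = 0.00197). Of the 19 HSP90 genes 9 passed the test of the difference, and of the 30 HSP70 genes 3. Cirbp (difference 2.003 ± 0.36, adjusted p = 0.00876) and Rbm3 (1.10 ± 0.17, adjusted p = 0.00336) differed in the opposite direction. So did 11 of the 37 large cytoskeletal genes, among them Myh9 (2.43 ± 0.36, adjusted p = 0.00295), and 9 of the 41 large nuclear genes. Ccl6 and Fcgr2b also differed. The log2 change of Ccl6 was 1.83 in IL-15-treated cells (difference -4.84 ± 0.80, adjusted p = 0.00507), and that of Fcgr2b 1.15 (-3.50 ± 0.35, adjusted p = 9.91e-05). Neither change passed the test within IL-15-treated cells (adjusted p = 0.103 for Fcgr2b).

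Among genes near Fcer1g, Cd244, Slamf6, Sh2d1b2 and Pyhin1 had changes of the same sign in both states and did not pass the test of the difference, unlike Fcgr2b. Cd244 had log2 changes of -0.83 and -0.82 (difference -0.01 ± 0.14, adjusted p = 0.994), and Slamf6 1.34 and 1.47 (-0.13 ± 0.24, adjusted p = 0.844). Sh2d1b2 had 2.14 and 2.03 (0.11 ± 0.27, adjusted p = 0.886), and Pyhin1 -2.65 and -2.33 (-0.32 ± 0.27, adjusted p = 0.595). Fcer1g itself (-1.93 ± 0.39, adjusted p = 0.0169) and Gm4955 (1.78 ± 0.26, adjusted p = 0.00277) passed the test of the difference. Both were lower in KO in each state. In NK cells of tumour-bearing lung, fitted on its own 8 libraries, 40 genes were higher and 42 lower of 13129 (0.625%). Several chaperones were among the lower ones there, with log2 changes of -1.87 (adjusted p = 0.00646) for Hsph1, -1.44 (adjusted p = 0.00235) for Stip1, -0.99 (adjusted p = 0.00243) for Hsp90ab1 and -1.14 (adjusted p = 0.00377) for Hspe1. Cirbp (0.30 (adjusted p = 0.349)), Myh9 (0.19 (adjusted p = 0.698)) and Tln1 (0.18 (adjusted p = 0.687)) did not pass. The genes near Fcer1g compared above all passed in lung, with the sign they had in naive cells. Lower there were Fcer1g (-5.38, adjusted p = 1.05e-08), Gm4955 (-3.89, 7.70e-08), Fcgr2b (-3.51, 7.70e-08), Pyhin1 (-1.67, 9.48e-06) and Cd244 (-0.87, 0.00243). Slamf6 (2.27, adjusted p = 0.000563) and Sh2d1b2 (2.29, 0.00672) were higher. The difference between naive spleen and lung was not tested here.

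**Figure D5:**
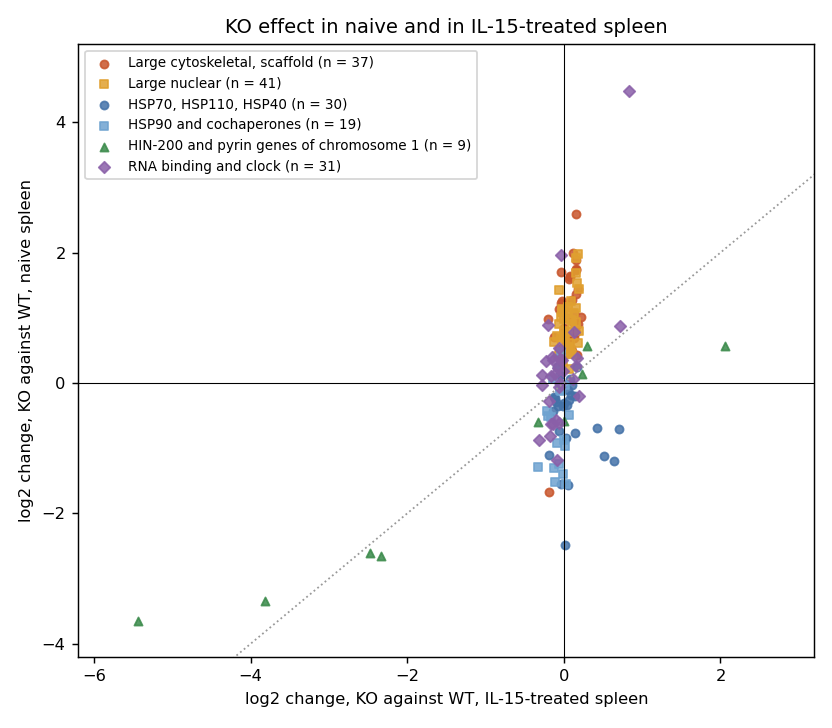
Log2 change of KO against WT in IL-15-treated spleen (horizontal) and naive spleen (vertical) for the genes of 6 lists, coloured by list; the dotted line marks equal changes, and Ifi202b, whose fitted changes lie beyond the axes, is left out. Most HSP90 genes lie below 0 and most large cytoskeletal and nuclear genes above 0 on the naive axis, all close to 0 on the IL-15 axis, while the lowest HIN-200 genes are low on both.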

How the data were processed

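Poly(A) RNA of mouse NK cells was sequenced in 24 libraries. The 16 from spleen were fitted together, and the 8 from lung on their own. The authors deposited expected counts for 38215 genes. The submitters' processing notes name cutadapt 1.9, GRCm38, STAR 2.5.2a and RSEM 1.2.30, without settings or annotation. Per the labels' protocols the libraries were made with a directional poly(A) kit; whether counting used strand is not stated. Values that were not whole (5.47% of the expected counts the authors deposited) were rounded.

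Genes were kept with filterByExpr, scaled by TMM and tested with the quasi-likelihood F test of edgeR 4.0.16 in R 4.3.3, with Benjamini-Hochberg adjustment over all tested genes at a threshold of 0.05. A standard error is the log2 change over the square root of F. The test was tested on simulated data. No 2 naive libraries of the same genotype agreed within sampling noise, and other pairs were not checked. Library measures were compared by an exact permutation test. Exon lengths came from GENCODE M21 and promoter windows from RefSeq (GRCm38.p6). Replicate numbers did not pair the samples.

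The members and gene lists were chosen with earlier results of these data known, so lists are described by counts and medians without a test. The naming rule took Fcer1g first. It then took the 12 strongest changes per direction that passed the test, had an average of 1 CPM or more and showed no overlap, skipping predicted genes and antigen receptor segments. From each list it took up to 6 members by p and those whose role the list is named for, and it allowed tested genes within 2 Mb of Fcer1g. Chosen outside it, after their values were seen, were Ahsa1, Chordc1, Ptges3, Unc45a, Nr1d1, Ahnak, Chd4, Srrm2, Ddit4, Id2 and Batf. Markers of cell types, such as Mcpt8, Il7r, Cxcr6 and Tnfsf10, were also named outside the rule. Alternatives were DESeq2 1.42.0 and its size factors, limma 3.58.1 (voom with library weights), no filter or a stricter one, an offset for length and GC content, mitochondrial genes removed, other sets of libraries, a replicate block and leaving out each library. The offset without KO replicate 1 was added after seeing the data. A few genes the rule names are not reported here.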

Additional observations from a re-analysis of the deposited data

Results flagged for a closer look

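In some groups of 4, 1 library lay further from its nearest neighbour, relative to the whole range, than Dixon's 95% critical value. Of 352 groups of 4 checked (each named gene, library measure and principal component in each genotype) 26 had such a library, and chance flags about 1 in 20. KO replicate 1 was that library in 14 of them. On the principal components it was at 134 on the first, next to -4.37, and at 14.8 on the second, next to -37.0. It was the highest KO library for Hsph1 (78.1 CPM, next 43.2), Srsf7 (82.5 CPM, next 63.5), Chd4 (606 CPM, next 416), Jun (106 CPM, next 60.7), Tnfaip3 (226 CPM, next 152) and Wdr86 (5.07 CPM, next 1.72). It was the lowest for Cd3g (7.75 CPM, next 19.1), Fcrl6 (3.87 CPM, next 9.48), Rpl27 (228 CPM, next 382), Serpinb9 (333 CPM, next 496), Crem (10.8 CPM, next 15.6) and Lgals1 (554 CPM, next 732). KO replicate 2 stood apart for Myc (54.5 CPM, next 49.97). KO replicate 3 stood apart for Cct5 (329.7 CPM, next 267). WT replicate 1 stood apart for Clec2d (23.6 CPM, next 17.1). WT replicate 2 stood apart for Hspd1 (352 CPM, next 234), Hsp90aa1 (1284 CPM, next 817) and Ccnd3 (669 CPM, next 589). WT replicate 3 stood apart for Zap70 (189 CPM, next 233), Wdr86 (0 CPM, next 0.408), Eml6 (0 CPM, next 0.641) and the share of the 50 most abundant genes (21.2%, next 19.5%). WT replicate 4 stood apart for Prf1 (2327 CPM, next 1706) and Pcp4l1 (0.0713 CPM, next 0).

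For 39 named genes the effect of KO differed between naive and IL-15-treated spleen in edgeR's test of that difference (adjusted p under 0.05), each given as the naive minus the IL-15 log2 change. Among chaperones it was -2.50 for Hsph1, -1.61 for Hspa8, -1.52 for Dnaja1, -1.18 for Hsp90aa1, -0.88 for Hsp90ab1, -1.58 for Stip1, -1.18 for St13, -1.39 for Fkbp4, -0.98 for Ahsa1, -1.40 for Ahsa2, -0.96 for Chordc1 and -0.83 for Ptges3. Among large cytoskeletal and nuclear genes it was 2.43 for Myh9, 1.87 for Tln1, 1.74 for Ahnak, 1.73 for Plec, 1.58 for Dync1h1, 1.17 for Smarca4, 1.80 for Brca2, 1.11 for Chd4 and 1.01 for Arid1a. On chromosome 1 it was -1.93 for Fcer1g, -3.50 for Fcgr2b and 1.78 for Gm4955. Other genes with a lower effect in naive cells were at -0.77 for Xbp1, -1.09 for Tra2a, -1.53 for P4ha1, -0.77 for Klre1, -4.84 for Ccl6, -1.27 for Cish, -0.997 for Crem and -0.58 for Ccnd3. Those with a higher effect in naive cells were at 2.00 for Cirbp, 1.10 for Rbm3, 0.94 for Nolc1, 0.74 for Slc7a1, 1.34 for Clec2d, 0.96 for Bach2 and 2.08 for Ccdc88c.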

How the results depend on the processing

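Leaving out 1 naive library at a time gave 942 to 1503 genes higher in KO and 755 to 1226 lower, both lowest without WT replicate 3; with KO replicate 1 left out and the length and GC offset 967 were higher, and with the 8 naive libraries fitted alone 787 were lower. The other alternatives, the replicate block included, moved these counts by less than 1.5 times: 989 to 1960 higher and 913 to 1401 lower. The 205 genes whose effect differed between naive and IL-15 spleen became 686 with DESeq2, 1320 with voom and 368 with all 24 libraries, and 83 to 714 when 1 library was left out. Of 134 named genes that passed, 111 did so in every alternative that tested them. The call of Vangl2 ended with voom (adjusted p = 0.126). Klrd1 turned to a log2 change of 0.33 with the length and GC offset and 0.14 with KO replicate 1 left out as well, and Gzma to 0.033 with the offset. With the replicate number as a block the counts were 1102 higher and 913 lower (8 naive libraries) or 1345 and 1113 (16 libraries), within 1.5 times of the counts without it; the block gave 149 for the difference between the states. Same-numbered WT and KO libraries deviated together by correlations of -0.0298, -0.0398, 0.0304 and 0.0949, and no source gives the numbers a shared origin. The lower depth of KO replicate 1 limits the precision of low genes. The causes of these shifts were not tested.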
